A study of Mus musculus with 6 samples.

Results

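Regions enriched for H3K4me3, the trimethylated lysine of histone H3 that marks transcription starts, were examined where they lay at genes for transfer RNA (tRNA) and 5S ribosomal RNA (5S rRNA). The members were the regions of 2 deposited lists, on chromosomes 1 to 19 and X, that lay within 1 kb of a tRNA gene or a 5S rRNA gene. By this rule 194 of 48525 regions of the wild-type list and 208 of 46547 regions of the knockout list were members. Of these, 131 wild-type and 144 knockout regions lay more than 2.5 kb from every protein-coding gene and are called far. The other 63 and 64 are called near. The gene table held 403 tRNA genes and 69 5S rRNA genes on these chromosomes, 472 in all. Of the 5S rRNA genes, 51 were typed as rRNA and 18 as pseudogenes.

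The cells were CD8+ tumour-infiltrating lymphocytes from E0771 tumours, a mouse mammary tumour line, in mice of the C57BL/6 background. They came from wild-type animals or from animals in which Cre recombinase had deleted Atg5, a gene required for the formation of autophagosomes. The labels give neither the Cre driver nor the deleted part of Atg5, nor how many animals were pooled. Chromatin had been cut with micrococcal nuclease and precipitated with 1 H3K4me3 antibody. Each genotype had 1 library, so no difference between genotypes below has a replicate check and no p-value is given. Sequencing depth is not recorded in the lists. Fewer marked cells and less mark per cell cannot be told apart in such bulk samples.

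The label of the cells was checked against marker genes, counting a gene as marked if a region lay within 1 kb of either gene end. Of 8 T cell genes, 3 were marked in the wild-type list (Cd3d, Cd8b1 and Cd2) and 8 in the knockout list. Cd8a, Cd3e, Cd3g, Lck and Bcl11b had no region in the library labelled wild type. The summed covered length of the 8 T cell genes was 1874 bp in wild-type cells and 16008 bp in the knockout. Covered length had the same ceiling at every marker gene, and all 8 T cell genes stood at it in the knockout. The sums given here therefore do not measure the full extent of the mark. All 6 myeloid genes and all 6 epithelial genes were marked in both lists, against 59.5% of all 21517 protein-coding genes. Their summed lengths were 5927 and 6581 bp for the myeloid and 4669 and 6983 bp for the epithelial genes. Of 6 fibroblast and endothelial genes, 6 were marked in wild-type cells and 5 in the knockout, and here the summed length was shorter in the knockout (9407 and 5719 bp). The deposited fold, described below, ran from 3.57 to 29.9 (wild type) and from 3.32 to 42.7 (knockout) at myeloid genes. At epithelial genes it ran from 4.16 to 23.0 and from 6.36 to 26.8. Marked T cell genes had 3.42 to 11.7 and 18.0 to 27.4, and marked fibroblast and endothelial genes 5.72 to 29.1 and 4.98 to 17.4. The medians of all regions were 7.81 and 8.02. The part of the cell mixture in the results below was not tested.

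RNA polymerase III transcribes tRNA genes, 5S rRNA genes and a few other short noncoding RNAs. At tRNA genes the promoter lies inside the gene, in an A box and a B box that the factor TFIIIC binds, and TFIIIB then recruits the polymerase. At 5S rRNA genes TFIIIA binds an internal control region first. Proliferating cells, activated T cells among them, need large amounts of both RNAs for protein synthesis. Active tRNA genes are known to carry H3K4me3 on the nucleosomes beside them, although the mark is best known from genes read by RNA polymerase II.

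None of the 472 genes matched the RefSeq promoter table by symbol, but 10 of its windows, which run from 250 bases before to 50 bases after the start of another gene, overlapped a tRNA gene. They are shown for 5 of these genes because they place the tRNA gene inside the marked stretch. The windows are RefSeq sequence of GRCm38.p6, read 5′ to 3′ on the strand of the named promoter. Capitals mark the bases of the tRNA gene.
Gm46404 promoter, chr13:23445922-23446221, minus strand, with n-TVcac9: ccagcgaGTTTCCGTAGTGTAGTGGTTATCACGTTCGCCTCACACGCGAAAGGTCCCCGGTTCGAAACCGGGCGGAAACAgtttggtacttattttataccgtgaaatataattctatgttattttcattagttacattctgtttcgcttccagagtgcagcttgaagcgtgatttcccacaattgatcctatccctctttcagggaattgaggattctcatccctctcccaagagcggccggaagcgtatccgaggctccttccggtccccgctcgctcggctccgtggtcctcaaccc
Gm32420 promoter, chr13:21222490-21222789, minus strand, with n-TAagc16: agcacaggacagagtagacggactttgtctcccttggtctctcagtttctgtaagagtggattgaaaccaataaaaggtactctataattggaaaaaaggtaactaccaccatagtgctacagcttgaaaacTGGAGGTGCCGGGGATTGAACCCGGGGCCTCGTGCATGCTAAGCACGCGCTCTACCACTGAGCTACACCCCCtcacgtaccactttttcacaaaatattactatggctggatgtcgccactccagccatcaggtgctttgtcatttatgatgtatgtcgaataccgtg
Gm38989 promoter, chr7:35234765-35235064, minus strand, with n-TTagt9: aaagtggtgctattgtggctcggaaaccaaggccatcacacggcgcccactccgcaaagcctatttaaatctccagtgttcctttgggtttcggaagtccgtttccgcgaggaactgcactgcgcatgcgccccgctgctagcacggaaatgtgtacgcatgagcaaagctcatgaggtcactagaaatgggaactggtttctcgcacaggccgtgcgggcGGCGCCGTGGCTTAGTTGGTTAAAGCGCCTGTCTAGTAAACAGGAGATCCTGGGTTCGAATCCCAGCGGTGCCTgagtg
Polr3e promoter, chr7:120917528-120917827, plus strand, with n-TLaag4: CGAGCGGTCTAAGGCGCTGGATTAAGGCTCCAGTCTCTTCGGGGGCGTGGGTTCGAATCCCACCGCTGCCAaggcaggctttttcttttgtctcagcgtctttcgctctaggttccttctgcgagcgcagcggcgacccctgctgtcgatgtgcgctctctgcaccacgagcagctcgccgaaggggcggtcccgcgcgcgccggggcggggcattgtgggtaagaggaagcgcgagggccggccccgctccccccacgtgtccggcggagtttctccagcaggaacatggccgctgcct
Polg promoter, chr7:79466224-79466523, minus strand, with n-TRtcg5: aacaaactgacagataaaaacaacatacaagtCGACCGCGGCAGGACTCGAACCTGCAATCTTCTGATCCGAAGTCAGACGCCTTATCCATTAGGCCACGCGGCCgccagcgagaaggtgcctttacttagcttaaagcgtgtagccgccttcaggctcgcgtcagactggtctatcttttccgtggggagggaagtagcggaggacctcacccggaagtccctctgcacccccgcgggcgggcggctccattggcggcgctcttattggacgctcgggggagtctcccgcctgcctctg

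The valine gene n-TVcac9 and the alanine gene n-TAagc16 are far genes, 10770 and 27863 bp from the nearest protein-coding gene, and the promoters that overlap them belong to long noncoding RNAs. The threonine gene n-TTagt9 also lies in the promoter window of a long noncoding RNA, 1390 bp from Wdr88. The leucine gene n-TLaag4 lies 180 bp from Polr3e, which encodes a subunit of RNA polymerase III itself. The arginine gene n-TRtcg5 overlaps Polg, which encodes the mitochondrial DNA polymerase. In both lists each of the 5 tRNA genes was covered over its whole length. The window from 1 kb before to 1 kb after the gene was also wholly covered in both lists for 4 of them, whereas at n-TTagt9 the covered length was 1952 of 2074 bp in each. The letters GTTCGANNC, taken as the core of the B box, were searched on both strands. They occurred inside the tRNA bases of 6 of the 10 windows, for n-TVcac9 from base 60 of the window on the shown strand and for n-TRtcg5 from base 45 on the other strand. Of all 32619 promoter windows of this length, 0.849% held the letters. Some windows without a match held only part of the tRNA gene: 47 of 74 bases of n-TNgtt6, 17 of 107 of n-TLcaa3 and 25 of 73 of n-TRacg6. The letters could lie outside those windows. No match was found for n-TAagc16, which says only that these letters are not in that window.

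Regions at tRNA genes were broader than most regions of their list and had higher deposited fold values, whether or not a protein-coding gene was close. The fold is the authors' ratio of reads at the summit over a local background. Whether that background came from input is not given in the sources used here. The fold is used here only within 1 list. Among far wild-type regions the median fold was 23.9 (95% interval of the median 15.6 to 27.6, n = 131), against 6.66 (6.50 to 6.76) for the 18280 other far regions. Among near wild-type regions it was 34.1 (31.99 to 36.7, n = 63), against 9.36 for the 30051 other near regions. In the knockout list the medians were 15.8 (13.0 to 21.0, n = 144) for far and 36.9 (32.6 to 40.9, n = 64) for near members, against 6.59 and 9.67 for the others. The intervals of the far and the near members did not overlap within either list. These intervals and those of shares below cover counting error only, and regions of 1 cluster share their surroundings.

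**Figure D1:**
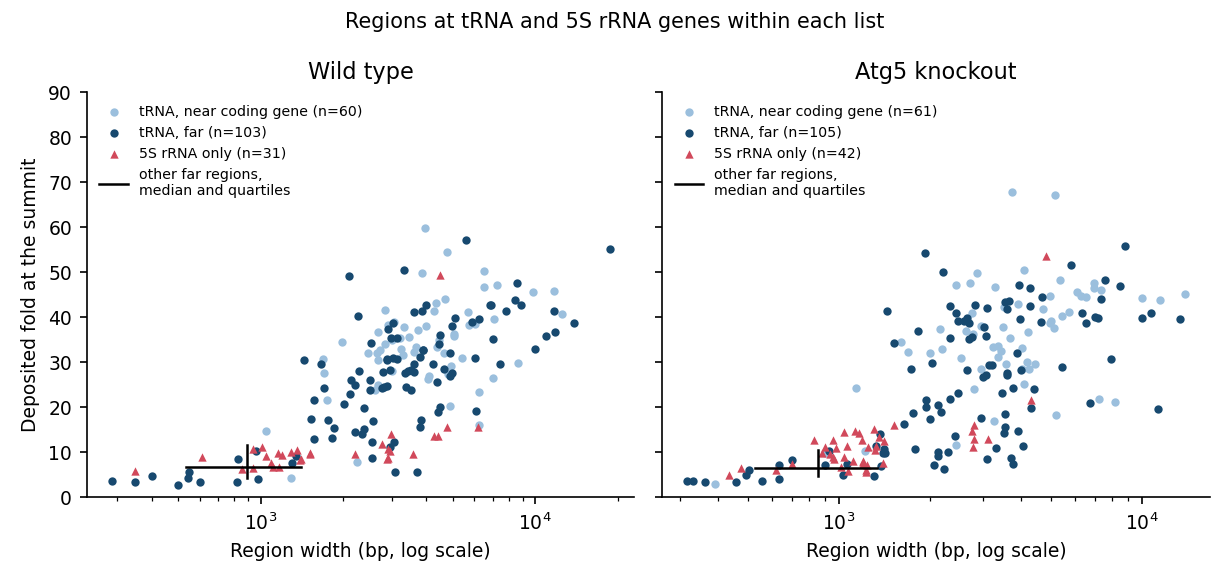
Width (bp, log axis) and deposited fold at the summit of each region at a tRNA or 5S rRNA gene, in the wild-type list (left) and the knockout list (right), 1 point per region. The black cross gives the median and quartiles of the other far regions. Most regions at tRNA genes lie above and to the right of the cross, and the regions at 5S rRNA genes only lie mostly between fold 5 and 20.

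Folds of far members were described by the kind of gene and by other genes within 1 kb. Far regions at tRNA genes had a median fold of 27.8 (24.4 to 29.7, n = 103) in wild-type cells and 24.3 (19.1 to 29.9, n = 105) in the knockout, and near regions at tRNA genes had medians of 34.3 and 37.0. Far regions at 5S rRNA genes only had medians of 9.59 (n = 28) and 11.1 (n = 39). A long noncoding RNA lay within 1 kb of 38 far wild-type and 40 far knockout members, with median folds of 29.0 and 29.1. The 93 and 104 far members without one had medians of 15.6 and 14.2, still above the 6.66 and 6.59 of other far regions. Members with no other gene of any type within 1 kb had medians of 15.5 and 13.9 when far (n = 86 and 100). The few such near members had medians of 31.7 and 37.3 (n = 6 and 5). All 28 and 39 far regions at 5S rRNA genes only lacked any other gene within 1 kb. They therefore fell in both groups of far members without such a neighbour. The parts of gene kind and of neighbouring genes in these medians were not separated. Other far regions with a long noncoding RNA within 1 kb had medians of 7.02 and 6.91. Counted from the top, 16 of the 100 far wild-type regions of highest fold and 18 of the 100 far knockout regions were members. Members made up 0.712% and 0.918% of all far regions.

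Far members had a median width of 2909 bp in wild-type cells and 2219 bp in the knockout, against 888 and 852 bp for other far regions. Near members reached 3978 and 3705.5 bp. The median width was 3072 and 2695 bp at far tRNA genes and 1391 and 1195 bp at 5S rRNA genes only. Far regions with 1 tRNA or 5S rRNA gene within 1 kb had median widths of 2123 and 1402.5 bp, and those with more had 4293 and 3557 bp. Genes were counted from the bounds of each region, so a wider region in a cluster reaches more genes by construction. The widest member of the wild-type list, which was also the widest of all its regions, spanned 18669 bp (chromosome 3, 96485601 to 96504269) across 5 tRNA genes, n-TNgtt12, n-TKctt16, n-THgtg8, n-TGtcc7 and n-TEctc13. The knockout region over the same 5 genes was 7556 bp wide. All 5 genes lay in the highest-fold far regions of the wild type, with a fold of 55.1.

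The highest fold of a far wild-type region was 57.2, at a pair of leucine genes 7389 and 7762 bp from Pllp, n-TLcag5 and n-TLcag4 (chromosome 8, 94703631 to 94704086). The third of these regions, with a fold of 50.4, lay over the valine genes n-TVcac2 and n-TVaac5 and the alanine gene n-TAagc7 (chromosome 13, 23412077 to 23413320). In the knockout list the highest fold of a far region was 55.8. That region of 8780 bp lay over 7 genes on chromosome 19, namely n-TKctt29, n-TFgaa2, n-TKctt30, n-TLtaa4, n-TRtct1, n-TVtac1 and n-TVtac2. In the wild-type list the region there was 8881 bp wide with a fold of 42.6. The arginine gene n-TRccg1 (chromosome 11, 107012866 to 107012938) and the pair n-TEctc11 and n-TFgaa4 on chromosome 13 followed with knockout folds of 54.2 and 51.7 and wild-type folds of 49.1 and 39.5. The regions just inside the 1 kb limit had folds of 14.8, 24.4 and 18.98 in the wild type, and the 3 just outside it 8.58, 2.79 and 3.12. In the knockout list those just inside had 7.19, 8.17 and 12.5 and those just outside 10.4, 10.1 and 7.74. Around the 2.5 kb limit, members just inside had wild-type folds of 32.8, 30.7 and 38.0 and those just outside 41.3, 35.4 and 42.6. The knockout values were 42.8, 21.3 and 34.6 inside and 6.99, 47.0 and 43.7 outside.

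Nearly all members lay at the same place in both libraries. Of the far members, 126 of 131 wild-type regions overlapped a knockout region by at least 1 bp (96.2%, exact 95% interval 91.3 to 98.7%), and 142 of 144 knockout regions overlapped a wild-type region (98.6%, 95.1 to 99.8%). Over all far regions the share was 64.4% for wild-type and 77.6% for knockout regions. All 63 and 64 near members overlapped (100%, lower bounds 94.3 and 94.4%), against 78.7% and 75.2% of all near regions and 73.3% and 76% of all regions. Among far regions, sharing was more frequent at higher strength. Among far regions with a deposited −log10 q of at least 10, 123 of 124 wild-type and 134 of 135 knockout members were shared, against 86.1% and 85.5% of the other far regions. At that limit far members still had higher median folds (24.3 and 17.7) than other far regions (10.1 and 9.12), so strength was not made equal. Members were also wider than other far regions, and the parts of strength and width in their overlap were not tested. All 5 unshared wild-type members were 286 to 819 bp wide with folds of 3.38 to 4.65. The 2 unshared knockout members, at n-TTcgt2 and n-TGccc3, were 494 and 504 bp wide with folds of 4.98 and 6.08.

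Counted by gene, 336 of the 472 tRNA and 5S rRNA genes had a region within 1 kb in both lists, 4 in the wild-type list only, 2 in the knockout list only and 130 in neither. Over all 49205 genes of the table, 42.5% had a region in both lists, 3.22% in the wild type alone and 2.84% in the knockout only. Over the 4352 other genes of at most 200 bp, which are closer in length, these shares were 12.2%, 1.49% and 3.31%. Of the 403 tRNA genes, 299 were marked in at least 1 list (74.2%, 69.6 to 78.4%). The share was 70.9% of the 309 far tRNA genes (65.5 to 75.9%) and 85.1% of the 94 near ones (76.3 to 91.6%). Among other noncoding RNA genes far from protein-coding genes, the share was 15.1% of miRNA genes (11.4 to 19.4%), 9.63% of snRNA genes (7.37 to 12.3%), 5.05% of snoRNA genes (3.65 to 6.79%) and 38.6% of long noncoding RNA genes (37.5 to 39.8%). Near-identical copies are common among tRNA and 5S rRNA genes. How reads that fit several copies were placed is not given in the sources used here, and its part in which genes had a region was not tested.

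**Figure D2:**
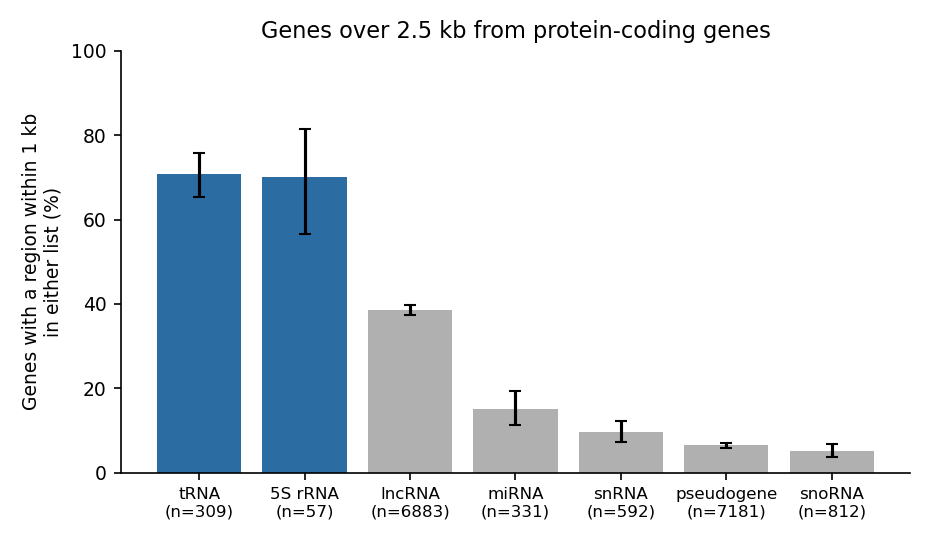
Share of genes (%) with an H3K4me3 region within 1 kb in either list, for genes more than 2.5 kb from protein-coding genes, by gene type. Bars carry exact 95% binomial intervals and n is the number of genes. The tRNA and 5S rRNA genes stand at 70.9% and 70.2%, above lncRNA genes at 38.6%, which are longer and so offer more room for a region.

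The 6 genes marked in 1 list only were all far tRNA genes. The serine gene n-TSgct2 (chromosome 13, 21492845) had a covered length of 347 bp in the wild type with a fold of 3.38, the serine gene n-TStga2 had 819 bp at the same fold, and the methionine gene n-TMcat10 had 545 bp with a fold of 4.42. The fourth, n-TSgct1 on chromosome 1, stood at the edge of the rule. Its region began 953 bp from the gene, had a fold of 24.4 and overlapped a knockout region that began farther away. The threonine gene n-TTcgt2 (chromosome 13, 21264580) had 494 bp covered in the knockout only and the glycine gene n-TGccc3 (chromosome 4, 32230250) had 333 bp. These counts of 4 and 2 genes depended on the rule: among the 20000 regions of highest −log10 q in each list they were 21 and 11. With regions overlapping the gene itself, 11 genes were marked in the wild type only, of which 9 were far, and with a −log10 q of at least 5 it was 5 genes, of which 4 were far.

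By amino acid, the marked tRNA genes covered the whole set of 20. Every gene was marked in at least 1 list for glycine (28 of 28), tyrosine (10 of 10) and phenylalanine (7 of 7). Arginine followed with 23 of 24, threonine with 16 of 17, glutamine with 15 of 16 and serine with 20 of 22. Leucine had 22 of 25, methionine 14 of 16, proline 14 of 16, tryptophan 7 of 8 and glutamate 17 of 20. The counts were 18 of 22 for valine, 13 of 16 for aspartate, 10 of 13 for asparagine, 8 of 11 for histidine and 11 of 16 for isoleucine. Lysine had 17 of 26, alanine 20 of 33 and cysteine 9 of 56. Of 48 anticodons in the table, 45 had at least 1 marked gene and 24 had all their genes marked. The 3 without a marked gene, His-atg, Ile-tat and Ser-gga, each had a single gene. A further symbol, n-Tcgca44, could not be parsed into an amino acid, and its gene on chromosome 6 was unmarked.

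**Figure D3:**
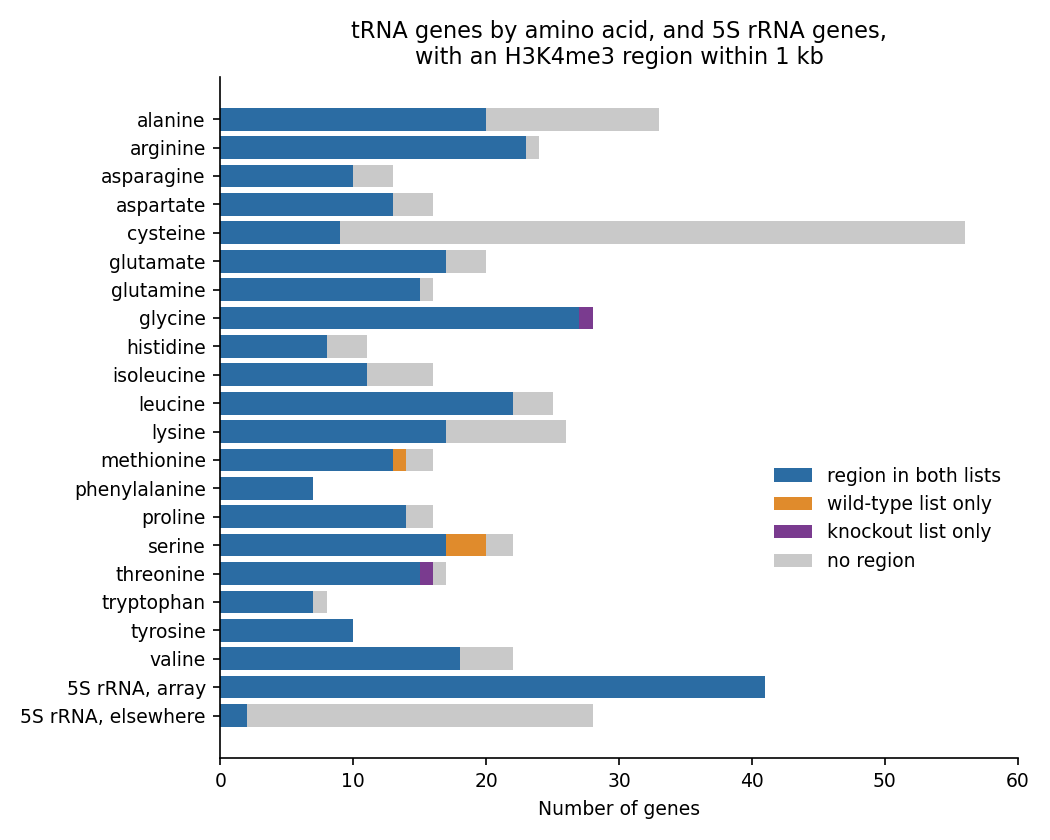
Number of tRNA genes by amino acid, and of 5S rRNA genes in and outside the array on chromosome 8, split by whether an H3K4me3 region lay within 1 kb in both lists, in 1 list only or in neither. Cysteine stands out with 47 of 56 genes unmarked, and the 41 array genes of 5S rRNA are all marked in both lists.

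The unmarked tRNA genes were gathered on chromosomes 6 and X. Of the 104 unmarked tRNA genes, 48 lay on chromosome 6 and 15 on chromosome X, and the other 41 were spread over 16 chromosomes. The table placed 48 cysteine genes on chromosome 6, between 47978997 and 48363603, and 2 of these were marked. These were n-TCgca57, 13697 bp from Zfp956, with folds of 30.6 and 28.2, and n-TCgca32, with folds of 8.58 and 4.15. Of the 8 cysteine genes elsewhere, 7 were marked in both lists. The pair n-TCgca54 and n-TCgca55 near Arl5c on chromosome 11 lay under the near members of highest fold in each list, 59.9 in wild-type cells and 67.7 in the knockout. On chromosome X, 2 of 17 tRNA genes were marked, the valine gene n-TVtac3 with folds of 35.4 and 28.5 and the glutamine gene n-TQttg1 with folds of 8.84 and 4.98. The 12 alanine genes of chromosome X, between 136357602 and 136590436, were all unmarked, whereas 20 of 21 alanine genes of other chromosomes were marked. Without the cysteine genes and the unparsed n-Tcgca44, 290 of 346 tRNA genes were marked (83.8%, 79.5 to 87.5%).

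Genes that lay at most 10 kb apart were joined into clusters, which gave 203 clusters. Of these, 138 held a single gene and 65 held several. Among the single genes 73 were unmarked. Among the 65 larger clusters 53 had every gene marked in at least 1 list and 7 had none marked, 4 of them on chromosome 6 and 3 on chromosome X. The largest tRNA clusters were the following. On chromosome 6, clusters of 22, 10 and 9 genes, made up of cysteine genes and n-Tcgca44, had 1, 0 and 0 marked genes. On chromosome 1, 15 genes for aspartate, glutamate, glycine and leucine between 171064164 and 171081946 were all marked in both lists, with folds of 4.65 to 7.94 in the wild type and 7.44 to 11.6 in the knockout. On chromosome 13, which held 105 tRNA genes with 99 marked, the cluster from 21907111 to 21940995 had 15 genes with 12 marked in both lists and 2 in the wild type only. The cluster from 23425646 to 23453514 had 14 genes, all marked in both, with folds of 20.4 to 35.9 and 28.5 to 40.9. In the cluster from 21234045 to 21279768, 9 of 10 genes were marked in both lists, and the median covered length was 1700.5 bp in wild-type cells and 1259.5 bp in the knockout. The 9 genes from 21160785 to 21172942 were covered over the whole window of 1 kb on either side in both lists. Chromosome 19 had all of its 10 tRNA genes marked.

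The 5S rRNA genes separated by place. All 41 genes of the array on chromosome 8 (123538784 to 123622046, between Gas8 and Rhou) were marked in both lists, whereas 2 of the 28 5S rRNA genes elsewhere were. The array genes, n-R5s100 to n-R5s149 with gaps in the numbering, stood at a median spacing of 1702 bp over 83263 bp, and 40 of the 41 were far. Regions covered 78.5% of the array in wild-type cells and 68.5% in the knockout. The wild-type list had 33 regions there with a median width of 1356 bp and the knockout list 43 with a median of 1163 bp, and all of them overlapped a region of the other list. Folds ran from 5.32 to 15.6 in the wild type, with a median of 9.59 at percentile 56.7 of that list, and from 3.78 to 21.6 in the knockout, with a median of 10.5 at percentile 60.5. Array copies are close to identical, and the part of read placement in this profile was not tested.

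**Figure D4:**
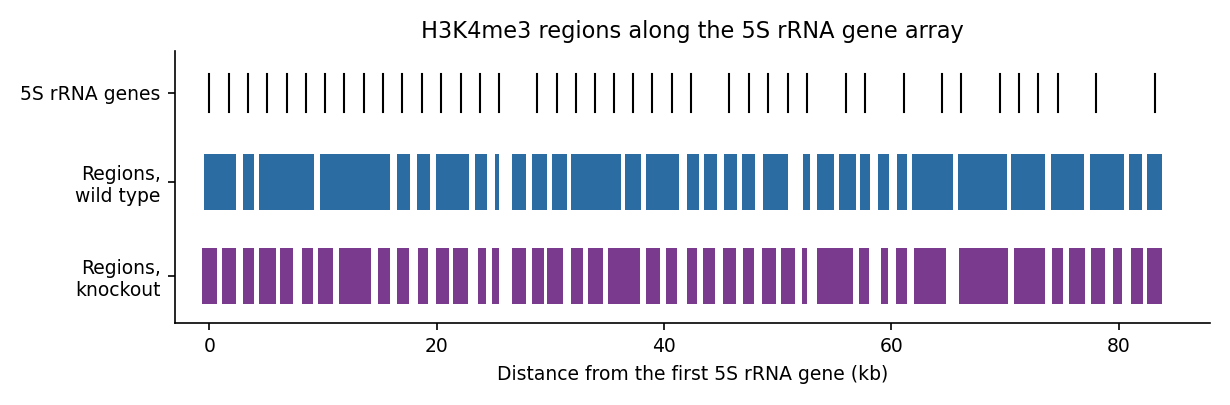
H3K4me3 regions along the 5S rRNA gene array of chromosome 8, by distance (kb) from the first gene. Ticks are the 41 genes of the table, blue boxes the 33 wild-type regions and purple boxes the 43 knockout regions. Regions recur along the whole array in both lists, and the gaps between them are wider in the knockout, where 68.5% was covered against 78.5%.

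Outside the array, n-R5s41 on chromosome 15, typed as a pseudogene and lying in Pheta2, had 559 bp covered in wild-type cells and 913 bp in the knockout. Its regions had folds of 49.4 and 53.5 and ended before the gene itself. The rRNA-typed gene n-R5s151 in Npas1 on chromosome 7 had 940 and 435 bp covered with folds of 6.50 and 4.98. The other 26 5S rRNA genes, on 14 chromosomes, had no region within 1 kb in either list. Of these, 16 were typed as pseudogenes and 17 were far.

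Covered length, the stretch of bp lying under regions, was taken from 1 kb before to 1 kb after a gene. It was equal in both lists at 132 of the 259 far genes with any coverage, shorter in the knockout at 103 and longer at 24, with a median difference of 0 bp and a mean of -105 bp. Over all 23892 covered genes of the table it was shorter in the knockout at 53.6% and longer at 44.5%, with a median of -37 bp. Those windows take in the whole gene, with a median length of 17376 bp for protein-coding genes, so many are longer. At other covered genes of at most 200 bp, far and near together, 265 were shorter and 352 longer of 741. At near tRNA and 5S rRNA genes covered length was shorter at 19, longer at 10 and equal at 54. At far and near members together these counts were 122, 34 and 186. The window was wholly covered in both lists for 182 tRNA genes, where no difference could appear. Among the 41 genes of the 5S array, 40 of them far, 35 were shorter in the knockout and 5 longer. Their median covered lengths were 1590 bp in wild-type cells and 1230 bp in the knockout. Among far tRNA genes alone, 69 were shorter, 19 longer and 131 equal. The extent of a called region depends on depth and on the calling threshold, and with 1 library each their part in these lengths was not tested.

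**Figure D5:**
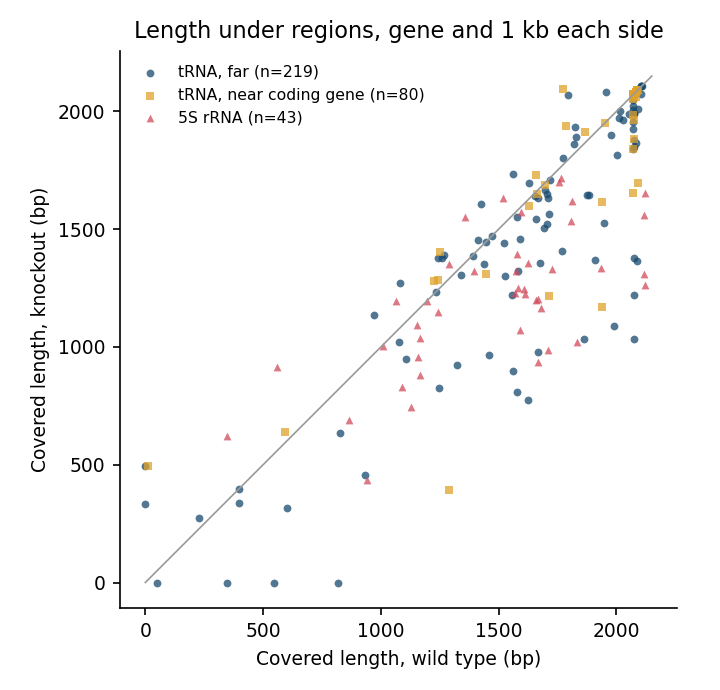
Covered length (bp) from 1 kb before to 1 kb after each marked gene, wild type on the horizontal and knockout on the vertical axis, 1 point per gene. The line marks equal lengths. The 5S rRNA genes lie mostly below the line, and many tRNA genes sit together at the upper right end, where the window is full in both lists.

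The longest losses among far genes were at the threonine gene n-TTagt3 (2074 bp in the wild type, 1032 bp in the knockout) and the methionine gene n-TMcat12 (1990 and 1089 bp), both on chromosome 13. Next came n-R5s104 in the array, with 2121 and 1264 bp. The lysine gene n-TKctt15 had 2073 and 1219 bp, the tyrosine gene n-TYgta5 1626 and 774 bp and the glutamine gene n-TQttg1 on chromosome X 1863 and 1035 bp. The others were n-TStga2, with no coverage in the knockout, the array genes n-R5s119 and n-R5s120, and n-TAtgc11 with 1580 and 809 bp. The longest gains were smaller. After n-TTcgt2 and n-TGccc3, which had no coverage in the wild type, they were 277 bp at n-TTagt6 and 275 bp at n-R5s115. Gains of 195, 190 and 182 bp followed at n-R5s122, n-TDgtc12 and n-TVaac3, and 171, 164 and 132 bp at n-TSaga8, n-TQctg10 and n-R5s130. Both directions occurred in the array and in the clusters of chromosome 13.

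Few summits lay inside a tRNA or 5S rRNA gene. Of 194 wild-type members, 180 overlapped a tRNA or 5S rRNA gene, and 1 had its summit inside one. In the knockout these counts were 190 and 1 of 208. The summit lay 101 to 300 bp from the nearest gene in 81 wild-type members (41.8%) and 97 knockout members (46.6%). The median distance was 290 bp for far and 384 bp for near members in the wild type, and 219 and 388.5 bp in the knockout. The tRNA genes themselves have a median length of 72 bp. Of 90 genes that were the only tRNA or 5S rRNA gene of 1 region in each list, 81 had both summits on the same side of the gene (90%, 81.9 to 95.3%). For far genes the count was 51 of 55 (92.7%, 82.4 to 98.0%), with the summits of the 2 libraries a median of 45 bp apart. Other far regions that paired 1 to 1 had summits a median of 70 bp apart. The table gives no strand, so the side was not read as upstream or downstream.

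At near members the tRNA gene and the protein-coding gene could not be assigned a share of the mark. The summit was closer to a tRNA or 5S rRNA gene than to the end of a protein-coding gene in 45 of 63 wild-type and 44 of 64 knockout near members. The region overlapped a protein-coding gene in 51 and 52 of them. The rule placed every member within 1 kb of a tRNA or 5S rRNA gene, whereas the end of a protein-coding gene could lie farther away. The counts of closer summits were thus partly set by the rule. The largest loss of covered length among near genes was at the arginine gene n-TRtct5 in Aim2, with 1290 and 391 bp, and the largest gain at the lysine gene n-TKctt24 in Rinl, with 12 and 495 bp. These near genes were chosen after their values were seen.

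The genes of the RNA polymerase III machinery were marked in both libraries. All 36 polymerase subunits and factors of the list had a region within 1 kb of a gene end in both lists, against 59.5% of all 21517 protein-coding genes. They included Polr3a, the largest subunit, with folds of 23.7 and 25.7, and Brf1 and Bdp1, subunits of TFIIIB, with 24.2 and 37.3 and with 36.7 and 44.8. Gtf3c1, which encodes the TFIIIC subunit that binds the B box, had 29.1 and 38.1. Maf1, the repressor of the polymerase, had 51.2 and 53.9. Covered length was shorter in the knockout at 15 of the 36 genes and longer at 5, with a median difference of 0 bp. For these listed genes it had the same ceiling whatever the gene length, unlike the measure used for tRNA genes above. Many of the 36 stood at the ceiling in both lists, where no difference could appear. A share over all genes is not given for this measure. Of 17 tRNA processing genes 16 were marked in both lists, and Rpp40, a subunit of ribonuclease P, was marked in neither. All 6 single-copy RNAs transcribed by this polymerase were marked in both lists. With regions counted within 1 kb of the whole gene, the share was 42.5% of all 49205 genes. It was 12.2% of the other genes of at most 200 bp. Whether protein-coding genes lay beside these 6 RNAs was not examined. Rn7sk had folds of 37.7 and 35.4, Rmrp 38.0 and 40.9, Rpph1 30.9 and 42.6 and Rny1 29.4 and 35.1, while Rny3 was lower at 4.91 and 6.60.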

How the data were processed

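Native chromatin immunoprecipitation had been sequenced in 6 samples, and both H3K4me3 libraries were used here. The samples for H3K27me3 and input were not analysed here. Regions were called with MACS2 on GRCm38 (mm10), per the submitters' processing notes. For MACS2 no version or settings are known; these, the aligner, the treatment of reads that fit several places and the use of input were not given in the sources used here. The deposited lists give the start, end and summit of regions, each list from 1 library. The deposited fold is a ratio at the summit, and the authors' −log10 q value belongs to that summit (lowest 2.00 for wild-type and 2.02 for knockout regions). The deposited score is −log10 q multiplied by 10 and was not used. These values are not scaled between libraries, so they describe, rank or filter regions within 1 list, and lists were compared by overlap (at least 1 bp) and by covered length.

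Gene positions came from a RefSeq table of GRCm38.p6 with 49205 genes on chromosomes 1 to 19 and X, 21517 of them protein-coding. It gives neither strand nor exons. A further 345 rows, 5 of them tRNA genes, carry positions on scaffolds and were left out. Distances run from region to gene, start to end. A gene was marked if a region lay within 1 kb. No test between genotypes was possible with 1 library each. Shares carry exact (Clopper-Pearson) 95% intervals and medians order-statistic intervals. The interval functions were tested on simulated data. The tools were SciPy 1.17.1, pandas 2.3.3 and NumPy 2.4.6 under Python 3.11.15, with Matplotlib 3.10.9 for figures.

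The members and gene lists were chosen with earlier results of these data known. Named are the 10 far genes under the highest folds of each list, the 10 longest gains and losses of covered length, far genes marked in 1 list only, the 8 largest tRNA clusters, each amino acid, the regions around each distance limit, the 5S rRNA genes (most of the array and the unmarked ones by count) and any gene of the polymerase III lists not marked in both lists. Other genes were chosen after their values were seen. Alternatives changed each distance, the calling threshold, the list length, the overlap and the genes counted.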

Additional observations from a re-analysis of the deposited data

Results flagged for a closer look

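The mitochondrial genome was outside the regions examined, but it carries 22 tRNA genes of its own, which are not transcribed by RNA polymerase III and not packed with histones. All 22 lay within 1 kb of a region in the wild-type list and 14 of 22 in the knockout list. The wild-type list held 2 mitochondrial regions, covering 15631 bp with folds of 2.90 and 3.44. The knockout list held 4, covering 3892 bp with folds of 2.48 to 2.96. All of these folds were below the median of 6.66 or 6.59 among other far regions of the same list. The cause was not tested.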

How the results depend on the processing

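Of 278 values under 14 alternatives, 246 stayed within the error of the main value or, for counts, within 1.5 times of it, and 32 moved farther. With a distance of 10 kb from protein-coding genes, 86 wild-type and 94 knockout regions were far, with median folds of 15.2 and 12.7 and a knockout median width of 1772.5 bp, and 155 far genes were marked in both lists and 1 in the knockout only. Without regions that had another gene within 1 kb, 86 far wild-type regions remained, with a median fold of 15.5. The far knockout width was then 1781.5 bp, near widths were 2848 and 2159 bp and the near wild-type fold was 31.7. With tRNA genes only, the far folds were 27.8 and 24.3 and the far knockout width was 2695 bp. With the 20000 regions of highest −log10 q in each list, the far wild-type share was 90.2%, the far knockout width 2764.5 bp and its fold 23.2, and 21 genes, all 21 of them far, were marked in the wild type only and 11, all 11 far, in the knockout only. With regions overlapping the gene itself, the far shares were 99.2% and 100%, and 11 genes (9 far) were marked in the wild type only. Within 500 bp, and with a −log10 q of at least 10, 1 gene (1 far) was marked in the knockout only. Within 2 kb the median difference in covered length was -132 bp. Leaving out the 5S pseudogenes was chosen after seeing the data. No paired analysis was possible because each genotype has 1 library and no result comes from a test, and no replicate could be left out. Depth is not stated, so a missing region does not show that the mark is absent.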
